A study of Mus musculus with 2 samples.

Results

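The Hist1 cluster of the mouse is the largest group of replication-dependent histone genes, and 54 of its protein-coding genes were followed here in chromatin of the embryonic liver. The members were all protein-coding genes of the GENCODE vM21 annotation whose symbol begins with Hist1h, 54 of 21884 uniquely named protein-coding genes. They comprise 6 linker histone H1 genes, 13 H2A, 15 H2B, 9 H3 and 11 H4 genes, all on chromosome 13 of the mm10 assembly. The rule used gene symbols alone, but it was set with earlier results of these data known.

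Replication-dependent histone genes are short, mostly without introns, and are transcribed mainly in S phase to supply the histones for new chromatin. Their mRNAs end in a stem-loop in place of a poly(A) tail. H2A, H2B, H3 and H4 form the core of the nucleosome, and H1 binds the linker DNA where it enters and leaves. NPAT joins their promoters in nuclear histone locus bodies, with type-specific partners such as HINFP at H4 genes and OCT1 at H2B genes. The liver at this stage is a site of red cell production with many dividing erythroid precursors.

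DNase-seq marks open chromatin by the cutting of DNase I, and short stretches shielded from cutting inside open chromatin are listed as footprints. The study holds 2 libraries and 1 group: liver of embryos aged 13.5 days, strain C57BL/6N,129, wild type with the A85 YAC, a yeast artificial chromosome present in multiple copies. Both libraries carry that transgene and the same donor identifier, the sex was not collected, and how many embryos went into each library is not stated. The labels name them biological replicates 1 and 2, and nothing says whether they came from separate embryos. With 1 group there is no contrast between conditions, so the values are descriptions, set beside the same measure over all genes.

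Replicate 1 had 76130 entries in its longer peak list and 151079 footprints, and replicate 2 had 73852 and 230992. Each peak carries a signal value whose normalization is not named. Within each library every value is a whole multiple of 1 step, 0.0127 in replicate 1 and 0.00604 in replicate 2, to a tolerance of 0.05 steps. The 95% intervals printed with values are exact Poisson intervals of that whole number and cover counting error only. As a check of the tissue label, all 6 red cell marker genes had a peak at their promoter in both replicates, against 3 of 5 hepatoblast genes. Over all protein-coding genes the share was 58.4%, and the hepatoblast count is near it. The red cell genes had median values of 7.58 in replicate 1 and 3.98 in replicate 2. All genes with a promoter peak had 5.66 and 4.34. Lowest of the red cell genes was Gata1 (3.24 and 2.10). The albumin gene Alb had a peak in replicate 1 alone (0.367), the liver factor gene Hnf4a in replicate 2 alone (0.404). Afp (1.41 and 1.43) and Trf (1.00 and 1.07) were low in both, and the value of Foxa3 (12.0 and 7.93) equals that of Sympk. In such a mixed tissue, fewer open cells and less cutting in each cell cannot be told apart.

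A gene was counted as open where a peak overlapped the 1 kb on either side of any of its transcript starts, and its promoter value was the highest such peak. By this rule 47 of the 54 Hist1h genes lay at a region found in both replicates (87.0%). These genes are not independent: counted once each, their shared regions of highest mean value numbered 36. Over all 21884 genes the share was 58.4%. In replicate 1 alone 47 members had a peak, against 60.6% of all genes, and in replicate 2 alone 48 members, against 65.3%. In the shorter, stricter peak lists 47 members had a region in both replicates, against 54.1% of all genes. All 9 H3 and all 11 H4 genes were open in both replicates, as were 5 of 6 H1, 10 of 13 H2A and 12 of 15 H2B genes.

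A larger share of members than of all genes was open, but most of their promoter values were not among the highest of genes with a promoter peak. The median promoter value of members with a peak was 8.90 in replicate 1 and 5.08 in replicate 2. All genes with a promoter peak had medians of 5.66 and 4.34. The median member stood at the 67.9th percentile of such genes in replicate 1 and at the 55.5th in replicate 2. Only 3 members in replicate 1 and 2 in replicate 2 exceeded the 90th percentile (14.8 and 11.1).

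**Figure D1:**
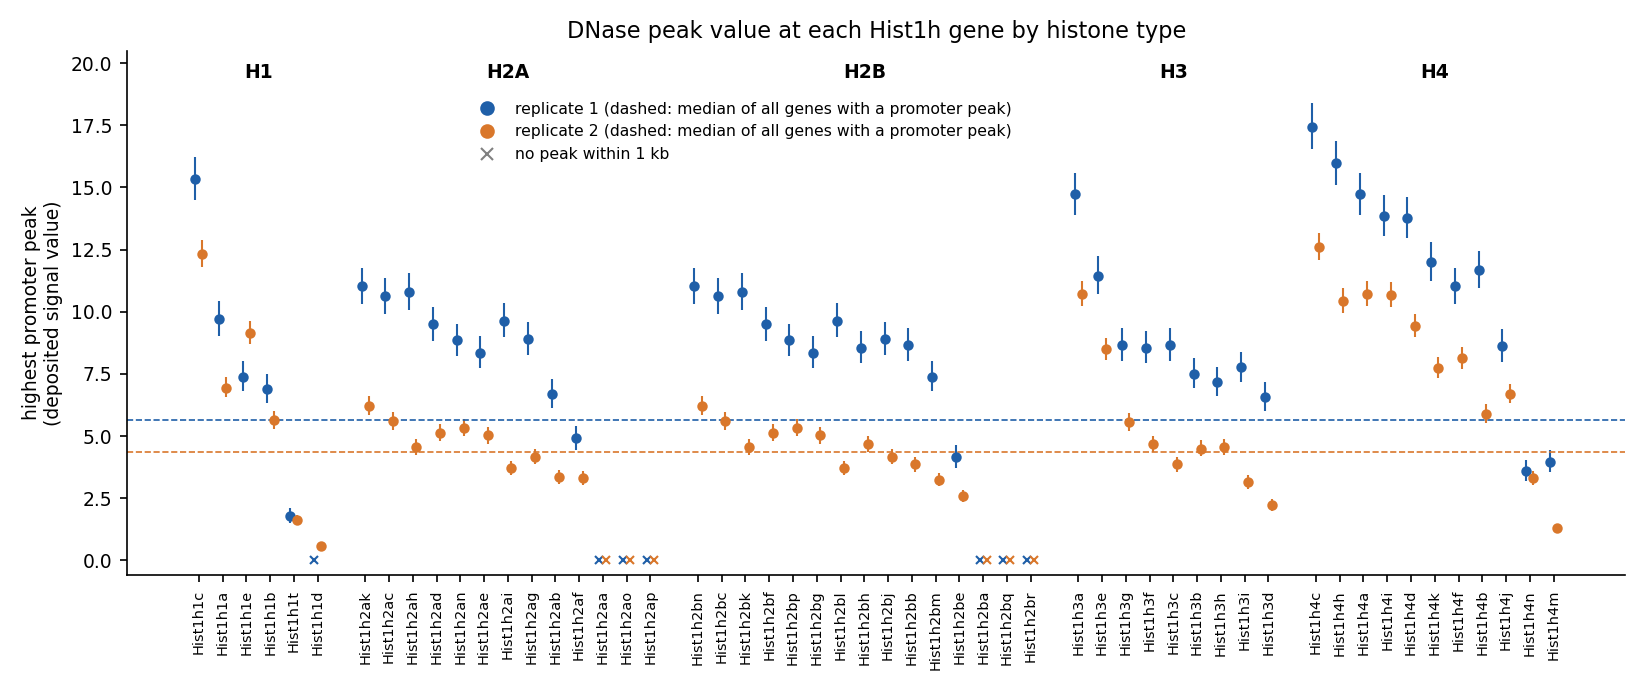
Highest promoter peak of each Hist1h gene (deposited signal value, vertical axis) in replicate 1 (blue) and replicate 2 (orange), with 95% Poisson intervals, grouped by histone type and ordered by the mean of both replicates. Crosses at 0 mark genes without a peak, and dashed lines give the medians of all genes with a promoter peak (5.66 and 4.34); the H4 genes reach the highest values and 6 H2A and H2B genes have no peak in either replicate.

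The histone types differed in level. H4 genes had the highest median, 12.0 in replicate 1 and 8.13 in replicate 2. H2A genes had medians of 9.20 and 4.79, H2B genes 8.87 and 4.62, and H3 genes 8.56 and 4.55. H1 genes had medians of 7.39 and 6.30. In replicate 1 the H1 median was the lowest of the types, whereas in replicate 2 it was the second after H4, so the order below H4 did not hold between replicates. No test separates the types, because neighbouring genes of different types often share a single region.

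The H4 genes encode one protein from many copies. Hist1h4c was the highest member, at 17.4 (interval 16.5 to 18.4) in replicate 1 and 12.6 (12.1 to 13.2) in replicate 2. Hist1h4h followed at 16.0 (15.1 to 16.9) and 10.4 (9.96 to 11). Both exceeded the 90th percentile of all genes in replicate 1, and Hist1h4c did so in replicate 2 as well. Hist1h4k lay at the median of its type, at 12.0 and 7.75. The lowest were Hist1h4m at 3.97 (3.55 to 4.44) and 1.29 (1.12 to 1.48), and Hist1h4n at 3.60 (3.19 to 4.04) and 3.31 (3.04 to 3.60). Only 4.7% and 5.0% of the 36-base words in the windows of these 2 genes occur once in the genome. The treatment of reads with several equal matches was not stated. Among the H4 genes whose windows are mostly unique, the medians were 13.8 and 9.43.

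A short element was found in nearly all H4 promoters, and footprints lay over it. The core GGTCCG of the H4 site to which HINFP binds, searched on both strands, was present in 10 of the 11 H4 windows of RefSeq (250 bases before to 50 after the start, GRCm38.p6). It was present in 2 of the 40 windows of the other types and in 8.25% of all 32851 such windows. RefSeq windows were at hand for 51 of the 54 members. The stretches below run from 34 bases before the core to 10 after it, 5′ to 3′ along the gene, with the core in capitals, for the 2 highest H4 genes, the gene at the median and the near-identical pair of lowest value.
Hist1h4c, chr13:23698489-23698538, minus strand: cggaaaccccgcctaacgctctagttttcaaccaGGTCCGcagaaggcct
Hist1h4h, chr13:23531005-23531054, plus strand: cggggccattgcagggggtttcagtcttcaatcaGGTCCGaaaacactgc
Hist1h4k, chr13:21750570-21750619, minus strand: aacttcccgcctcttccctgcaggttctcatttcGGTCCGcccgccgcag
Hist1h4m, chr13:21811665-21811714, plus strand: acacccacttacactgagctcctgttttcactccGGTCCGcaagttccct
Hist1h4n, chr13:21832228-21832277, minus strand: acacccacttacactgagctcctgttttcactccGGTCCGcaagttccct
The 50 bases of Hist1h4m and Hist1h4n are the same letter for letter, so a read within this stretch matches both. The H4 window without the core was that of Hist1h4a.

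In replicate 1 a footprint overlapped the core at all 10 H4 genes that have it, and in replicate 2 at 9 of the 10. The exception in replicate 2 was Hist1h4m. The footprints over the core had a median width of 32 bases in replicate 1 and 33 in replicate 2, against a median of 11 and 10 for all footprints near the members. They covered the whole core at 8 genes in replicate 1 and 9 in replicate 2. At Hist1h4c both replicates listed the same 45 bases, from 18 before the first base of the core to 26 after it. By comparison, a stretch of 6 bases placed anywhere in the H4 windows would touch a footprint in 33.2% of placements in replicate 1 and 31.5% in replicate 2. These shares take no account of position. Footprints covered 65.5% and 59.8% of H4 bases 100 to 51 bp before the coding start, where they were densest. At 1893 matches of the same core in 12165 other RefSeq windows that overlap a region of both replicates, a footprint lay over 24.5% in replicate 1 and 30.9% in replicate 2. The 2 matches in an H2B and an H3 window, those of Hist1h2bh and Hist1h3i, had no footprint in either replicate. A match is a description of letters and a footprint does not name the protein that made it.

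**Figure D2:**
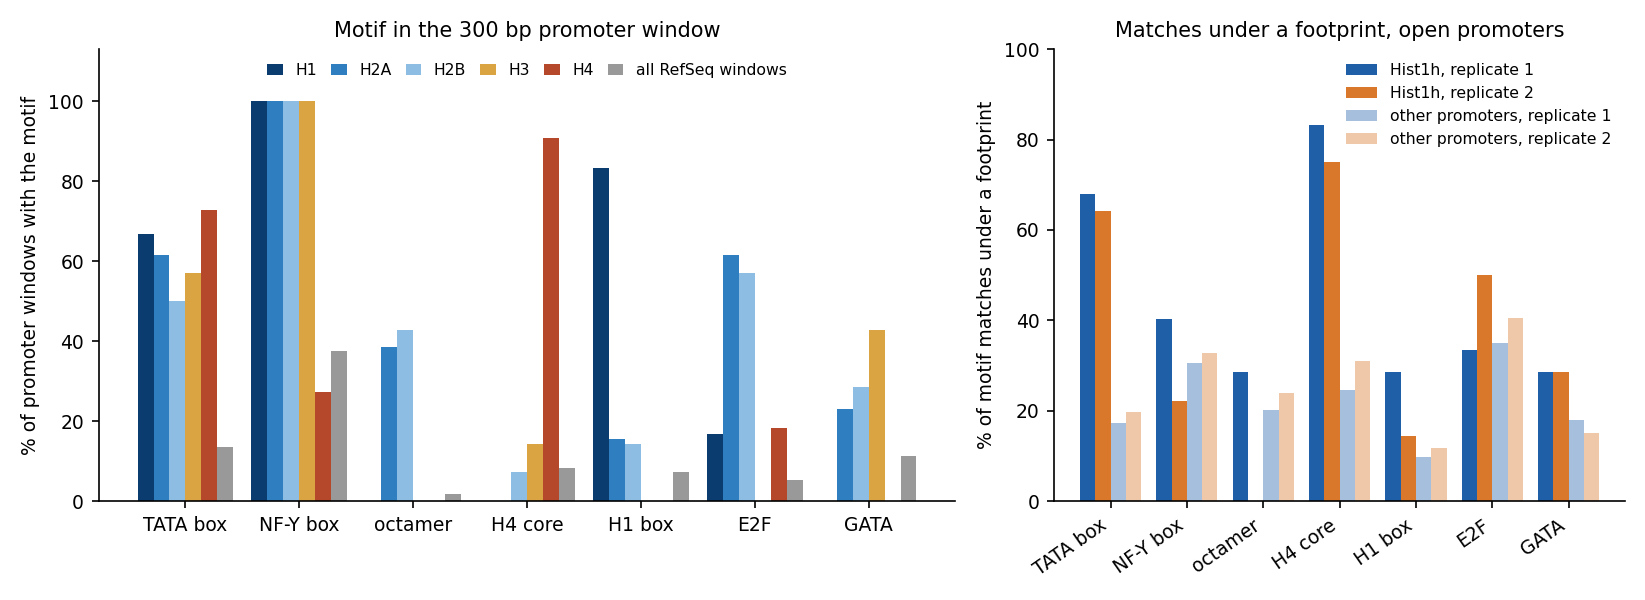
Left, share of RefSeq promoter windows (250 bases before to 50 after the start) that hold each motif, by histone type and over all 32851 windows (grey). Right, share of motif matches overlapped by a footprint in each replicate, at Hist1h windows (solid) and at other windows (pale). The Hist1h genes have a region of both replicates within 1 kb of the coding start, whereas the other windows themselves overlap such a region. The H4 core and the TATA box stand highest at the Hist1h genes.

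The H1 genes encode the linker histones. Hist1h1c was the highest, at 15.3 (14.5 to 16.2) in replicate 1 and 12.3 (11.8 to 12.9) in replicate 2, above the 90th percentile in both. Hist1h1a followed at 9.72 (9.05 to 10.4) and 6.95 (6.55 to 7.36). Hist1h1e had 7.39 (6.80 to 8.02) and 9.15 (8.70 to 9.62). Of the members with a peak in both replicates it was the only one whose value in replicate 2 exceeded that in replicate 1. Hist1h1b had 6.91 and 5.65. The testis gene Hist1h1t was the lowest H1 gene with a peak in both replicates, at 1.80 (1.51 to 2.12) and 1.61 (1.42 to 1.82). All of the 36-base words in its window are unique. Its region was centred 375 bp after the coding start, and no peak covered the 300 bp before that start in either replicate.

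By transcript starts, Hist1h1d had a peak in replicate 2 alone (0.592). Its annotated start lies upstream of its coding part, and a region at the coding start, chr13:23554921-23555220, reached 9.29 and 7.58. Measured from coding starts, all 6 H1 genes were open, with medians of 8.34 and 7.26. Hist1h2be, an H2B gene with the same kind of annotation, had 4.16 and 2.59 at its transcript starts and 7.46 and 4.22 at its coding start. With coding starts in place of transcript starts, 48 of the 54 members had a region in both replicates, against 41.2% of all genes.

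The H1 box AAACACA, an element of H1 promoters, was present in 5 of the 6 H1 windows and in 4 of the 45 other members' windows, against 7.18% of all windows. The 5 matches began between 122 and 112 bases before the start. CCAAT, the element bound by NF-Y, was present in all 6 H1 windows. The H1 sequences below end 1 base before the RefSeq start, with H1 box, CCAAT (or its reverse complement ATTGG) and TATAAA in capitals. They show the highest gene, the gene of highest replicate ratio, the testis gene and the one gene without an H1 box.
Hist1h1c, chr13:23738682-23738806, plus strand: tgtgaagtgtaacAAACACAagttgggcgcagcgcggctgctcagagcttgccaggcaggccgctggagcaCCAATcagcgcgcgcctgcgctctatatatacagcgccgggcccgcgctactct
Hist1h1e, chr13:23622559-23622683, minus strand: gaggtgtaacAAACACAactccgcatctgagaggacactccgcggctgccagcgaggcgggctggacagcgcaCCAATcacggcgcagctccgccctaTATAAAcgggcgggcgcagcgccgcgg
Hist1h1t, chr13:23695686-23695810, plus strand: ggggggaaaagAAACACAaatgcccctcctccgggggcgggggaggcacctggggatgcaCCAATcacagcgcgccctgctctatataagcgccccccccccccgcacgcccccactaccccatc
Hist1h1a, chr13:23763543-23763667, plus strand: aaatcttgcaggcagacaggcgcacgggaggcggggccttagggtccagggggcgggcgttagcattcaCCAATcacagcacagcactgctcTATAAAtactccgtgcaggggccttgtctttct
The testis gene carries the H1 box and CCAAT at about the same distances as the H1 genes of higher value, in a stretch without a peak. None of the 8 CCAAT matches in H1 windows was overlapped by a footprint in either replicate. The match of Hist1h1t, where no peak was listed, is among the 8. At other RefSeq windows that themselves overlap a region of both replicates, 30.5% and 32.8% of CCAAT matches were overlapped. The H1 box was overlapped in both replicates at Hist1h1c alone, and at Hist1h1d in replicate 1.

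H2A and H2B genes mostly stand head to head, so that 1 stretch of upstream DNA serves both. Of the 12 divergent pairs of members within 1 kb, 11 joined an H2A and an H2B gene. Their coding starts were 279 to 335 bp apart, with a median of 297 bp. Of these pairs, 8 had a region in both replicates, and in all 8 the same region was the highest for both genes. Values at the 8 pairs ran from 8.35 to 11 in replicate 1 and from 3.71 to 6.22 in replicate 2, a narrow range beside that of H4. A pair therefore gives 1 measurement and not a separate one for each gene. Hist1h2bh and Hist1h3f formed the one pair of H2B with H3, at 8.56 and 4.68.

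The highest pair was Hist1h2ak and Hist1h2bn, at 11 (10.3 to 11.8) and 6.22 (5.84 to 6.61). Hist1h2ac and Hist1h2bc followed at 10.6 (9.91 to 11.4) and 5.59 (5.24 to 5.96). Nearest to the type medians were Hist1h2an at 8.85 and 5.33, the pair Hist1h2ae and Hist1h2bg at 8.35 and 5.03, and Hist1h2bl at 9.65 and 3.71. The lowest H2A values with a peak were those of Hist1h2af (4.91 and 3.30) and Hist1h2ab (6.68 and 3.36). Among H2B genes the lowest were Hist1h2be, described above, and Hist1h2bm (7.39 and 3.25). Hist1h2af, Hist1h2ab and Hist1h2bm belong to none of the head-to-head pairs.

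CCAAT was present in all 13 H2A and all 14 H2B windows, often several times, as in the upstream stretch of the highest pair, read towards Hist1h2bn and with CCAAT and ATTGG in capitals.
Hist1h2bn, chr13:21753906-21754075, plus strand: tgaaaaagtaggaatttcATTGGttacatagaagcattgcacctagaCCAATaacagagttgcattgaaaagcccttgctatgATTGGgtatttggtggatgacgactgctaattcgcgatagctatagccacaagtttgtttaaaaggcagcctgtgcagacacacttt
All 7 H3 windows and 3 of the 11 H4 windows held CCAAT, against 37.4% of all windows. The octamer ATTTGCAT, the OCT1 element, was present in 6 of 14 H2B and 5 of 13 H2A windows and in none of the 24 others, against 1.74% of all windows. Windows of a pair overlap, so these are not independent matches. The E2F motif TTTNNCGC was present in 8 of 13 H2A and 8 of 14 H2B windows, against 5.17% of all windows. Footprints overlapped 31 of the 77 distinct CCAAT matches at open members in replicate 1 and 17 in replicate 2. A stretch of 5 bases anywhere in these windows would touch one in 32.2% and 25.0% of placements, and the CCAAT matches lay above that level in replicate 1 and below it in replicate 2. No octamer match was overlapped in both replicates. The GATA motif AGATAA was present in 10 of 51 windows, against 11.2% of all windows.

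The TATA box TATAAA was present in 31 of 51 windows (60.8%), against 13.6% of all windows. It was found in 4 of 6 H1, 8 of 13 H2A, 7 of 14 H2B, 4 of 7 H3 and 8 of 11 H4 windows. Of 11 matches that began 20 to 45 bases before the start, a place chosen after the matches were seen, footprints overlapped all 11 in replicate 1 and 10 in replicate 2. Of the 17 matches elsewhere, footprints overlapped 8 in each replicate. A stretch lying in both windows of a pair was counted once, by its place in the first window. The match 43 bases before the start of Hist1h2bg, overlapped in both replicates, is therefore among those elsewhere. At other RefSeq windows that overlap a region of both replicates, 17.3% and 19.6% of TATAAA matches at any place had a footprint. A stretch of 6 bases anywhere in the windows of open members would touch one in 33.5% and 26.0% of placements. At Hist1h4d and Hist1h4k in both replicates, and at Hist1h4j in replicate 2, the same footprint overlapped the TATA box and the H4 core. Such a footprint enters both counts.

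By the rule of the highest peak in the window, the H3 genes Hist1h3a (14.7, interval 13.9 to 15.6, and 10.7, interval 10.2 to 11.2) and Hist1h3e (11.5 and 8.50) led their type. The region behind the value of Hist1h3a lies at the H4 gene Hist1h4a, with its centre 942 bp from the coding start of Hist1h3a. The peaks nearest to the starts of Hist1h3a had 7.27 and 2.14, and by nearest peaks Hist1h3e was the highest H3 gene. Hist1h3e had a region of its own, and its upstream sequence with CCAAT and ATTGG in capitals is shown as the example of the type.
Hist1h3e, chr13:23562386-23562555, minus strand: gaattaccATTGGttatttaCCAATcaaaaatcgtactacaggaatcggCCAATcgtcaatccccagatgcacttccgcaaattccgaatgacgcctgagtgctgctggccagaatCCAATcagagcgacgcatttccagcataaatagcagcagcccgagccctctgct
By the mean of both replicates Hist1h3c (8.66 and 3.86) was the gene at the median of the type. Its highest region in replicate 1 is that of Hist1h2bb, where replicate 2 had 3.28, and its nearest peaks had 7.86 and 3.25. Lowest by the mean of both replicates were Hist1h3d at 6.57 (6.02 to 7.16) and 2.22 (2.00 to 2.46), and Hist1h3i at 7.76 (7.16 to 8.40) and 3.15 (2.88 to 3.43). All 9 H3 genes exceeded the median of all genes in replicate 1. In replicate 2 Hist1h3b, Hist1h3h, Hist1h3f, Hist1h3g, Hist1h3e and Hist1h3a did, and the other 3 did not. Hist1h3a did so through the region at Hist1h4a alone, since its nearest peak (2.14) was below that median.

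The members without a peak in either replicate were 6 H2A and H2B genes, in 3 head-to-head pairs. Hist1h2bq with Hist1h2ao and Hist1h2ap with Hist1h2br are near-identical inverted copies. The 300 bases of the Hist1h2bq and Hist1h2br windows are the same at all 300 positions, and the upstream stretch of both is shown once, with CCAAT and ATTGG in capitals.
Hist1h2bq, chr13:21810200-21810319, minus strand, and Hist1h2br, chr13:21833623-21833742, plus strand: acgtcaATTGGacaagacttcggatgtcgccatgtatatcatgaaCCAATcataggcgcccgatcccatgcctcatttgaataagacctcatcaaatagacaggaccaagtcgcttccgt
In the windows of these 4 genes 0 of the 36-base words were unique, and 0 bases carried a false discovery rate below 0.05 in either replicate. Peaks were listed over other sequence without unique words, such as 24.9% and 22.3% of the coding part of Hist1h4m. The part of repeated sequence in the missing peaks was not tested.

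The pair Hist1h2ba and Hist1h2aa, which encodes testis histones, also had 0 such bases in either replicate. Here 90.5% of the words in the windows are unique, and all words between the 2 coding starts are. The upstream sequence of Hist1h2ba is shown because it holds the TATA box, CCAAT and a reversed H1 box (in capitals), elements also found at open members.
Hist1h2ba, chr13:23934157-23934276, minus strand: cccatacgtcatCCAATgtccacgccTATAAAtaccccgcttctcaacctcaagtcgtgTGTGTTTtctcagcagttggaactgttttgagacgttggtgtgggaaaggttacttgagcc
Of the 3 testis genes, Hist1h1t alone had a region, centred inside its coding part and not upstream. Its value was among the lowest of the members in both replicates. The testis pair lies in a block of its own, away from the other members.

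Members fell into 4 blocks separated by gaps of more than 100 kb. The block at chr13:21715763-21837530 held 18 genes, of which 14 had a region in both replicates, and the 4 others were the inverted copies. The block at chr13:22035164-22043676 held 5 genes, all open. The block at chr13:23531050-23764406 held 29 genes, of which 28 were open by transcript starts. Median values in these blocks were 8.74, 10.8 and 9.08 in replicate 1 and 4.94, 4.56 and 5.14 in replicate 2, so the blocks differed less than the types. The block at chr13:23933773-23934851 held the closed testis pair.

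Over all 54 members together, the open chromatin was centred near the coding start, and the place of its maximum varied with type and replicate. For all members the share of bases inside a peak was highest 100 to 51 bp before the coding start in replicate 1 (80.0%) and 50 to 1 bp before it in replicate 2 (83.1%). In replicate 2 the maximum for H2A (76.9%) and H2B (80.0%) genes lay 0 to 49 bp inside the coding part, and in replicate 1 that for H2A genes lay 250 to 201 bp upstream (69.2%). For H1 genes the share 850 to 949 bp after the coding start equalled the upstream maximum of 83.3% in both replicates. Over all 54 members the share between 150 and 199 bp after the coding start was 4.22% in replicate 1 and 27.0% in replicate 2. Unique 36-base words made up 88.8% of words 100 to 51 bp before the coding start and 16.3% between 150 and 199 bp after it. The fall over the coding part thus ran along with sequence that occurs more than once, and its part in the fall was not tested. Median unique shares of coding sequence were 86.5% for H1, 20.3% for H2A, 22% for H2B, 22.5% for H3 and 32.0% for H4, whereas in the median member of each type all words of the 300 bp upstream were unique.

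**Figure D3:**
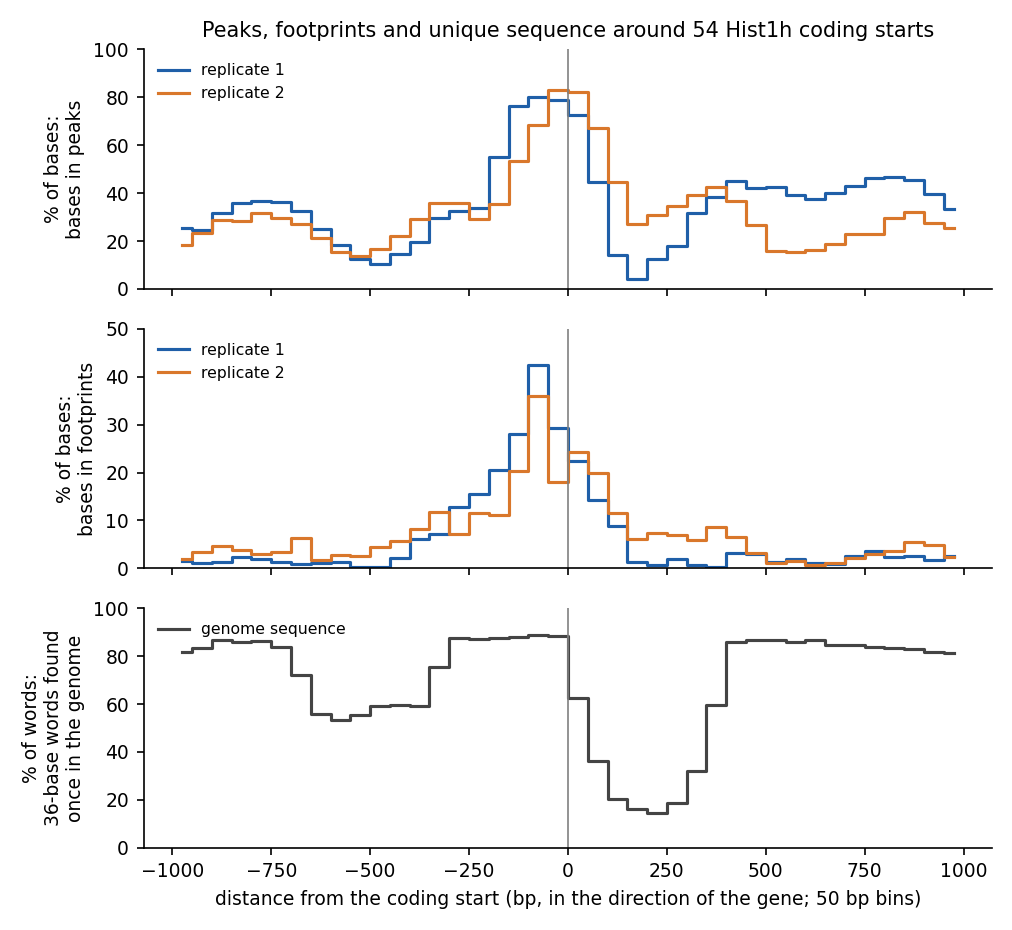
Share of bases in peaks (top), share of bases in footprints (middle; axis to 50%) and share of 36-base words found once in the genome (bottom), in bins of 50 bp by distance from the coding start, over all 54 Hist1h genes; blue is replicate 1 and orange replicate 2. Peaks and footprints are highest within 100 bp upstream, and unique words are fewest inside the coding part.

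Over all members, footprints were densest 100 to 51 bp before the coding start. They covered 42.4% of bases there in replicate 1 and 35.9% in replicate 2. For H4 genes these shares were 65.5% and 59.8%, and for H1 genes 48.0% and 63.7%. The maximum for H2A genes was there in replicate 1 (31.7%) and 0 to 49 bp after the coding start in replicate 2 (28.3%), as for H2B genes (39.1% and 27.3%). For H3 genes it was 50 to 1 bp upstream in replicate 1 (37.3%) and 100 to 51 bp upstream in replicate 2 (27.1%). Within 1 kb of the members, 368 distinct footprints were listed in replicate 1 and 454 in replicate 2. The median over all 54 members, open or not, was 9 and 12. Over all genes it was 2 and 5, and over genes with a promoter peak 6 and 9. A footprint overlapping between replicates was present at 47 of 54 members, against 52.3% of all genes. Of the footprints near members, 54.3% of replicate 1 and 46.0% of replicate 2 overlapped one of the other replicate, against 56.8% and 35.6% over the genome. The median of all 54 members was 1594 bases below the false discovery rate limit in the window in replicate 1. It was 409 over all genes and 1090 over genes with a peak. In replicate 2 the medians were 1181 for members, 708 for all genes and 1141 for genes with a peak.

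Replicate 2 was lower than replicate 1 at nearly all members after the libraries were centred on each other. Over all regions found in both replicates, replicate 2 had a median of 0.878 times the value of replicate 1, and log2 ratios were centred on this. The leading region of a member is its shared region of highest mean value. These regions had a median centred log2 ratio of −0.54, and 44 of 47 were below 0. The share below 0 among the leading regions of all genes is not given here. Outside the cluster, leading regions had medians of −0.14 at other replication-dependent histone genes and −0.13 at replacement and variant histone genes. At genes for the transcription and processing of histone mRNA the median was −0.17. Counted once each, 33 of 36 leading regions were below 0. Over all 76 shared regions near members, leading or not, the median was −0.41 (SD 0.55), against 0.06 over all shared promoter regions of all genes. By type the medians were −0.72 for H2A and for H2B, −0.55 for H3, −0.28 for H4 and −0.10 for H1. The red cell markers, all 6 below 0, had a median of −0.62, and the 3 hepatoblast genes with a region had 0.21 (Afp), 0.29 (Trf) and −0.41 (Foxa3). Whether a different share of cell types in the libraries has a part in the histone ratios was not tested.

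The lowest ratios were those of Hist1h4m (−2.13), Hist1h3i (−1.91), Hist1h3d (−1.38) and the pair Hist1h3c and Hist1h2bb (−1.21). At 4 members, all among these 5, the highest peak of replicate 2 lay outside the leading region. It had 3.15 at Hist1h3i, 1.29 at Hist1h4m and 3.86 at Hist1h3c and Hist1h2bb, against 1.82, 0.797 and 3.28 in the leading regions. The highest ratios were those of Hist1h1e (0.50), Hist1h4n (0.07), Hist1h1t (0.03), Hist1h1b (−0.10) and Hist1h1c (−0.13), of which 4 are H1 genes. With 1 library a replicate, these ratios have no error beyond counting.

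**Figure D4:**
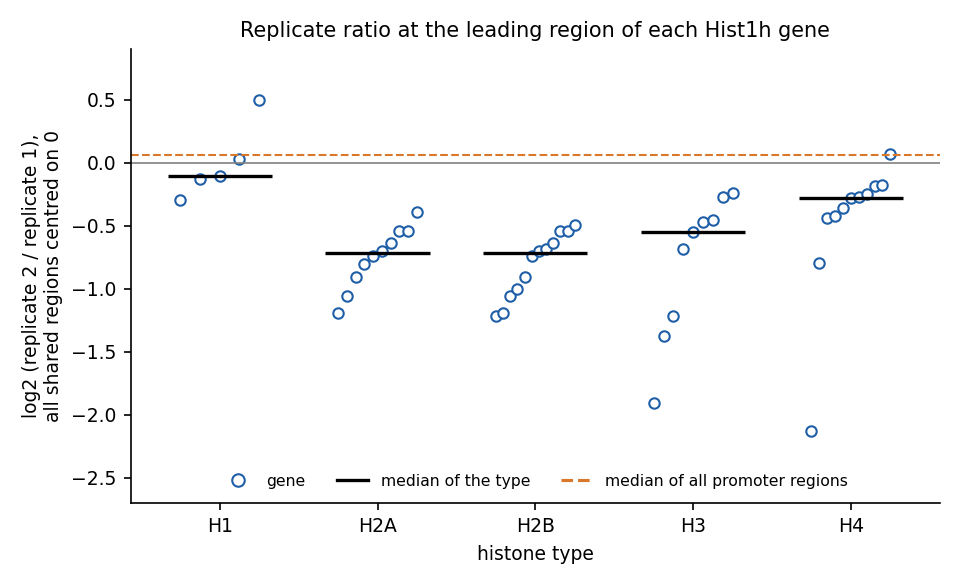
Centred log2 ratio of replicate 2 to replicate 1 at the leading region of each of 47 Hist1h genes (circles), by histone type, with the median of each type (black bars). The dashed line (0.06) is the median of all shared promoter regions, not of leading regions alone. Most circles lie below 0, lowest for H2A and H2B genes (medians −0.72), and genes of a head-to-head pair share a value.

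Between the Hist1h genes, open chromatin was mostly at transfer RNA genes. Outside the members' windows, the span chr13:21715763-23934851 held 115 regions found in both replicates, 41 in replicate 1 alone and 37 in replicate 2 alone. Of the 115, 70 lay within 100 bp of a transfer RNA gene, 10 at promoters of other protein-coding genes, 5 at coding starts of members, 6 within genes and 24 between genes. Of the 77 transfer RNA genes in the span, 72 (93.5%) had a region in both replicates. Transfer RNA genes are transcribed by RNA polymerase III, with promoter elements inside the gene. Their regions had medians of 4.46 and 3.13, below the leading regions at members (8.75 and 5.23) and above all shared regions of the genome (1.44 and 1.24). The gaps between blocks held 5.39 shared regions per 100 kb, against 1.68 over the genome.

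The highest region between the genes was the promoter of the zinc finger gene Zfp322a, chr13:23369121-23369380, at 16.1 and 10.6. A serine transfer RNA region at chr13:23518101-23518300 followed with 12.0 and 9.98, and another at chr13:21937021-21937300 with 10.9 and 9.13. A tyrosine transfer RNA region at chr13:23432961-23433160 had 10.5 and 9.16. Transfer RNA regions for isoleucine (chr13:23438041-23438280; 10.5 and 8.16), serine (chr13:23500881-23501100; 9.89 and 7.43) and threonine (chr13:23450541-23450780; 9.72 and 6.98) were also among the 10 highest. The coding start of Hist1h1d, given above, was the ninth. The other 2 of the 10 lay outside any annotated gene, on both sides of the block of 5 members. They were chr13:22050981-22051180 (11.3 and 8.57), 7867 bp from Hist1h2bj, and chr13:22028761-22028980 (10.7 and 8.76), 6697 bp from Hist1h2ah. Both were close to the values of the H4 gene Hist1h4f (11 and 8.13). Each of the 2 regions lay next to a transfer RNA region, for serine (chr13:22050661-22050900) and isoleucine (chr13:22029081-22029380), respectively.

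**Figure D5:**
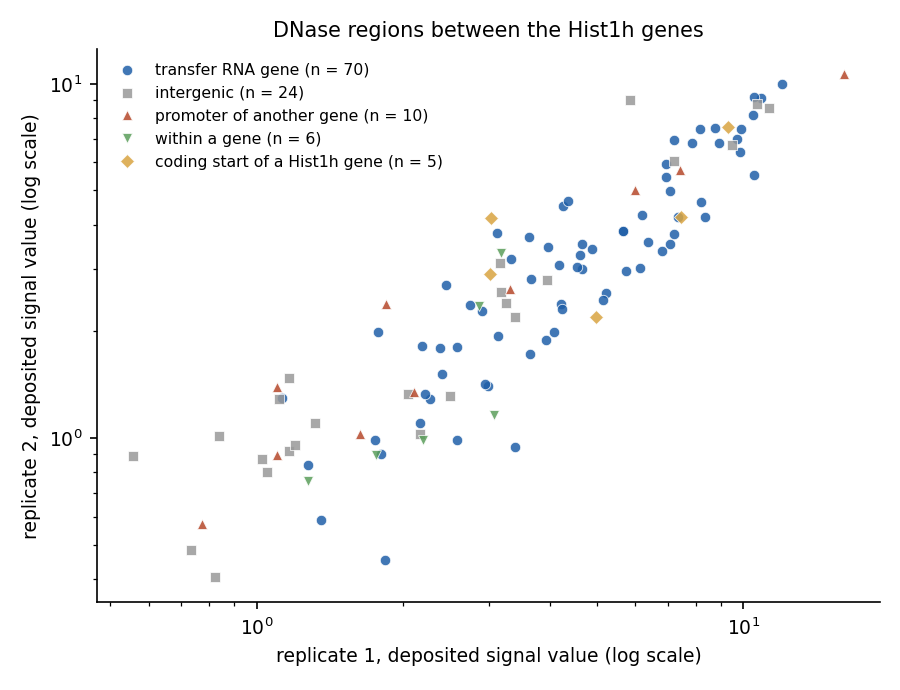
Signal values of the 115 regions between the Hist1h genes found in both replicates, replicate 1 on the horizontal and replicate 2 on the vertical axis (both log scales), by what the annotation holds there. Transfer RNA regions (blue) run over the whole range, and 1 promoter, that of Zfp322a, is the highest point (16.1 and 10.6).

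Histone genes outside the cluster gave similar shares. Of 13 other replication-dependent genes 12 were open in both replicates, with medians of 9.88 and 5.0. The highest were Hist2h2aa2 (20.2 and 19.7), Hist2h4 (14.5 and 9.35) and Hist4h4 (11.3 and 8.73), and the closed one was Hist2h3c1, a member of a set of near-identical copies. Of 13 replacement and variant histone genes, which are made outside S phase or in special cells, 10 were open, with medians of 8.76 and 8.30. The highest were H2afv (18.2 and 13.3), H2afx (16.0 and 12.1) and H2afj (15.3 and 11.7). H1foo, the oocyte linker histone, had no peak, H1fx one in replicate 2 alone (1.14) and the testis gene H1fnt one in replicate 1 alone (0.228).

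All 22 genes for the transcription and processing of histone mRNA and for histone deposition were open, with medians of 12.7 and 9.59. The highest were Nfya (25.7 and 18.2), a subunit of the factor that binds CCAAT, Chaf1b (18.9 and 18.0), a subunit of chromatin assembly factor CAF-1, and Lsm11 (17.3 and 15), of the U7 particle that cuts histone mRNA. Npat (18.7 and 12.8) and Hinfp (16.1 and 10.5), named after their values were seen, also exceeded the medians of the Hist1h genes. The median of this list was above that of each histone type in both replicates. Among H4 genes with mostly unique windows the median was higher than the list in replicate 1 (13.8) and lower in replicate 2 (9.43).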

How the data were processed

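DNase-seq peaks, footprints and false discovery rates of 2 liver libraries were taken as deposited. The authors made each list from the filtered alignments of 1 library on mm10, per the submitters' processing notes, and replicates were not pooled. Caller, aligner, read length and the handling of multiply mapped reads: not given in the sources used here. Signal values stand in the deposited peak lists as the authors computed them, and sequencing depth was not analysed here. The deposited false discovery rates, read like p-values, are listed where below 0.05, and the footprint lists carry the single value 0.01.

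Peaks of both replicates that overlapped by at least 1 bp were merged into regions (Python 3.11.15, pandas 2.3.3, numpy 2.4.6). Promoter windows reached 1000 bp on either side of GENCODE vM21 transcript starts. Words of 36 and 76 bases were counted on both strands of GRCm38.p6. The authors' values enter unchanged, and the scripts were tested on simulated data. Motifs were sought on both strands of RefSeq windows of 300 bases, of which 32851 were given. Members' RefSeq names were matched by synonym and position.

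The members, lists and measures were chosen with earlier results of these data known. Named are all members without a peak in both replicates, the 2 highest and 2 lowest of each type, those nearest the type median, the 5 lowest and 5 highest ratios, the 3 highest of each other list with those not open in both replicates, and the 10 highest regions between the genes. No comparison between groups was possible, so no test was run. Alternatives were the shorter peak list, windows of 500 and 2500 bp, the gene's 5′ end, the sum or nearest of several peaks, an overlap of 50 percent, other centring, each replicate alone and, chosen after seeing the data, coding starts and members with a mostly unique window.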

Additional observations from a re-analysis of the deposited data

How the results depend on the processing

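The number of Hist1h genes open in both replicates ran from 43 to 52 over the alternatives, with 47 and 48 when each replicate was used alone, and no result changed sign. Of 123 values recomputed for the main results, 116 stayed within the spread between replicates or within 1.5 times. The sum of all promoter peaks in place of the highest raised the median promoter value (mean of both replicates) to 11.4 over all members, 11 for H1, 11.7 for H2A, 11.3 for H2B and 10.9 for H3. The H4 median with the sum is not given here, so the rank of H4 under the sum is not shown. Taken singly, 31 members moved with the sum and 16 did not. The H1 median became 8.92 with windows of 2500 bp and 7.80 with coding starts. No paired analysis was possible because the 2 replicates belong to 1 group. With 1 value per library, no value has an error beyond counting, and 4 windows hold no unique word.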

Other observations

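Apart from histone and transfer RNA genes, the span holds 47 other protein-coding genes, of which 6 had a region in both replicates. Of these genes 34 are Vmn1r genes, which encode vomeronasal receptors of the olfactory system, and none of the 34 was open. The motif of the insulator factor CTCF was found in 3 of the 115 shared regions between the Hist1h genes (2.61%), against 232 of 2004 shared regions of chromosome 13 (11.6%). The 3 were the promoters of Abt1 (7.39 and 5.69) and Btn1a1 (1.63 and 1.03) and a region inside the long Hist1h2be model, chr13:23598061-23598240 (3.18 and 3.34). None of the 70 transfer RNA regions and none of the 24 regions between genes held it.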
